A study of Homo sapiens with 8 samples.

Results

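The IFIT family (interferon-induced proteins with tetratricopeptide repeats) was followed on a soft and on a stiff matrix in LX-2, an immortalized human hepatic stellate cell (HSC) line. The members were the rows IFIT1, IFIT2, IFIT3 and IFIT5 of the deposited gene tables, 4 of 25369 genes. They were chosen by name, and all 4 passed the filter on low counts that left 14570 genes for testing. Wild-type LX-2 cells without any drug or interferon treatment in the labels were grown on polyacrylamide hydrogel coated with plasma fibronectin, with a stiffness of 2 kPa (soft) or 40 kPa (stiff), for 2 or 4 days. Each of the 4 conditions had 2 RNA-seq libraries, 8 in all, with 19955975 to 27263935 counts per library. The study describes the 2 libraries of a condition as independent experiments. LX-2 is a single immortalized line, and the conditions model the stiffness of the substrate without the other cells of the liver.

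IFIT genes are among the genes most strongly induced by type I and type III interferon. Interferon binding to its receptor activates the kinases JAK1 and TYK2, and a transcription factor complex that includes IRF9 then binds interferon-stimulated response elements (ISREs) in promoters. Members of the IRF family can bind the same elements after cytosolic RNA or DNA is sensed, and so can induce IFIT genes without interferon. The IFIT proteins bind RNA and limit translation of foreign transcripts. IFIT1 recognizes 5′ ends that lack the methylation of host caps, IFIT2 and IFIT3 form complexes with it, and IFIT5 binds 5′ triphosphate RNA and acts largely alone. In stellate cells, as in other cells of the liver, interferon-stimulated genes are part of the innate antiviral response.

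The labelled cell type was checked by marker genes. The mesenchymal markers VIM, COL1A1, TAGLN and TIMP1 were abundant. Others of the list were low in mean FPKM, with COL1A2 at 0.42 to 0.71 and PDGFRA at 0.022 to 0.11, and COL3A1, PDGFRB, ACTA2 and THY1 lay between. DES, LRAT and GFAP, which mark stellate cells, had at most 2, 1 and 16 counts in any library. The RNA was thus that of a mesenchymal line with few defining stellate transcripts. All 13 stellate and mesenchymal markers had counts, 2 of 8 hepatocyte markers (TTR and FGB) were at 0 in every library, and CD163, CD3E and MS4A1 were at 0 among 12 immune markers. Of the hepatocyte markers, SERPINA1 had 104 to 220 counts per library and no other was above 8. In mean FPKM, the endothelial marker TIE1 was at 11.8 to 18.6 and the epithelial marker KRT7 at 6.92 to 8.68. Other markers of these lists were at most at 0.304 FPKM. The summed immune markers were at 108.521 to 110.167 CPM (counts scaled to a common library size) on the stiff and 91.9 to 97.2 CPM on the soft matrix at 2 days, and at 118.496 to 128.083 against 108.252 to 111.143 CPM at 4 days. CD68, a lysosomal protein of macrophages that other cells also express, made up most of this sum. The other 11 immune markers together were lower on the stiff matrix, at 5.58 to 7.2 against 8.1 to 9.79 CPM at 2 days and 6.88 to 8.75 against 9.24 to 9.85 CPM at 4 days. PTPRC, the common leukocyte marker, was at 0.0678 to 0.381 FPKM throughout. The part of these shifts in the results that follow was not tested. Libraries differed more within some conditions than in others. The chi-square per degree of freedom between the libraries of a condition was 3.38 for stiff and 9.64 for soft at 2 days, and 18.9 for soft and 112.308 for stiff at 4 days. The 2 libraries from the stiff matrix at 4 days thus stood furthest apart. The falls of IFIT1, IFIT2 and IFIT3 at 4 days are given with and without each of them, as are some other results. A fit without 1 of them assumes the spread of that condition from the others. A call gained or kept in such a fit is therefore not read as support.

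The 4 genes lie side by side on chromosome 10 in the same orientation. On GRCh37 (hg19), with GENCODE v44lift37, IFIT2 spans 91043451 to 91069028, IFIT3 91087064 to 91137230, IFIT1 91152303 to 91166244 and IFIT5 91174325 to 91181362, all on the plus strand, so that the family fills 137.9 kb. The canonical transcript of each has 2 exons. IFIT1B, a paralog at 91137813 to 91144962, had at most 2 counts in any library and was not tested. LIPA, which encodes lysosomal acid lipase, runs across the cluster on the opposite strand. It shares 65 exon bases (1.5%) with IFIT2 and 94 exon bases (1.86%) with IFIT3. A same-strand lncRNA, ENSG00000232110, shares 524 exon bases (12.1%) with IFIT2. The strand setting of the read counting is not given in the sources used here, so reads from these shared bases could have been counted for either gene or discarded.

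The sequences at the gene starts are shown for their matches to the ISRE. IFIT5, which was not called between the matrices, can there be set beside members that were. RefSeq start windows (GRCh38.p14 table, 250 bases before and 50 after each start) were matched for 3 of the 4 members, IFIT1, IFIT3 and IFIT5, with 4 windows in all; IFIT2 had no entry. Each window matched the GRCh37 sequence of chromosome 10 exactly once, and the coordinates are those of GRCh37. Capitals mark the ISRE core, which is GAAA, any 2 bases and GAAA, here read on the strand opposite to the gene as TTTC, any 2 bases and TTTC. All windows are printed 5′ to 3′ on the plus strand.
IFIT1, chr10:91152130-91152429: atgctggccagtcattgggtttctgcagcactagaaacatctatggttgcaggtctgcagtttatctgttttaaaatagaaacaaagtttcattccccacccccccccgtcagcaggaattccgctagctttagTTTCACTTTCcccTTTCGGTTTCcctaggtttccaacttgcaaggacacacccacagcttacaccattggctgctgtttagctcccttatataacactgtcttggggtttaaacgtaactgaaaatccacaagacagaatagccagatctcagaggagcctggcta
IFIT3, chr10:91087504-91087803: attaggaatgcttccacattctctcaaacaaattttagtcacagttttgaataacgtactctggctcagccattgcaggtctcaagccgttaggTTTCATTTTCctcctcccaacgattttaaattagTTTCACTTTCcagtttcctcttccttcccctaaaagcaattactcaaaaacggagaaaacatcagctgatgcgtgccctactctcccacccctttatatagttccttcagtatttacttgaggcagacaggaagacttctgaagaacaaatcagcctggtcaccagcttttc
IFIT5, chr10:91174075-91174374: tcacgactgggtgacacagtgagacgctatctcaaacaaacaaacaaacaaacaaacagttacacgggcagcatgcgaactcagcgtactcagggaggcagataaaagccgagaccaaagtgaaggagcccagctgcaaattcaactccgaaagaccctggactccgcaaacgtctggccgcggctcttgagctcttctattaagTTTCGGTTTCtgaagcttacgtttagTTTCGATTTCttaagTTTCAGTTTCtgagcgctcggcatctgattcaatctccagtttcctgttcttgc

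The IFIT1 window held 2 ISRE cores, whose bases lay at -116 to -107 and -103 to -94 from the start. The IFIT3 window held 2, at -156 to -147 and -122 to -113. A second IFIT3 window, chr10:91092036-91092335, also held 2, at -94 to -85 and -51 to -42. The IFIT5 window held 3, at -45 to -36, -19 to -10 and -4 to 6, closer to the start than those of IFIT1 and IFIT3. The IFIT1B window held 0. Over the whole RefSeq table, 3.57% of 35116 windows of this length held at least 1 ISRE core on either strand, as did 4.38% of the genes. Of 59 other interferon-stimulated genes on a fixed list, 49 had windows, and the core was in 51.5% of their 66 windows and in 30 of the genes (61.2%). The gamma-activated site TTCNNNGAA, a motif of interferon gamma signalling, was in none of the IFIT windows and in 7.66% of all windows. On the fixed list it was in 24.2% of the 66 windows and in 14 of the genes (28.6%). A match is a description of the letters in these windows and not a measured binding site.

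**Figure D1:**
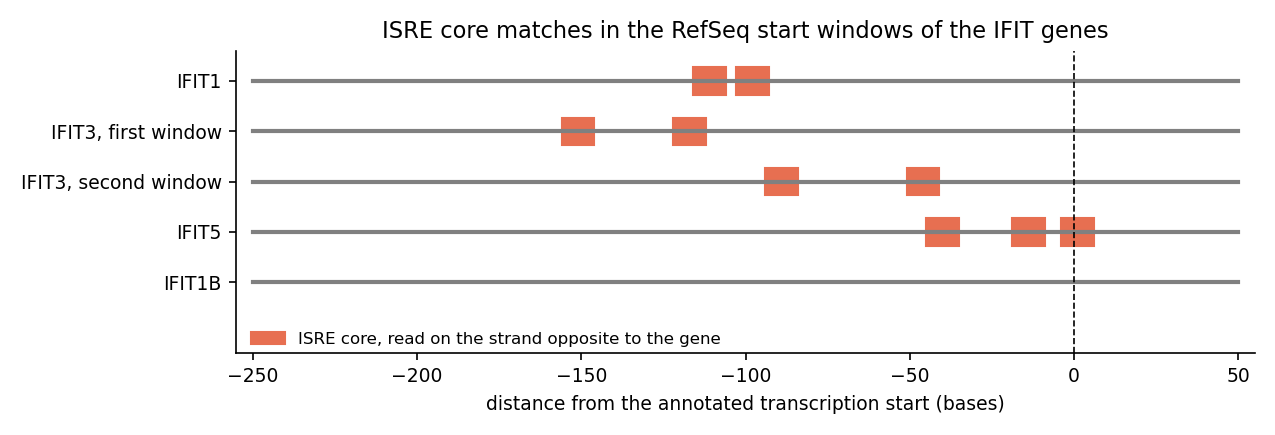
Positions of ISRE core matches in the RefSeq start windows of the IFIT genes, by distance in bases from the annotated start (dashed line). The grey lines span 250 bases before to 50 bases after the start and the boxes mark matches; IFIT1 and both IFIT3 windows hold 2, IFIT5 holds 3 near the start and IFIT1B holds 0.

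IFIT1, which recognizes the 5′ ends of RNA that lack cap methylation, was lower on the stiff matrix at both times and rose with time on both matrices. At 2 days it had 574 and 682 counts on the soft and 326 and 365 counts on the stiff matrix. At 4 days it had 1340 and 1367 counts on the soft and 522 and 475 counts on the stiff matrix. Both stiff libraries lay below both soft libraries at each time, also after scaling to library size. In FPKM, the fragments per kilobase of gene scaled for library depth (here by size factors), IFIT1 was at 4.73 ± 0.659 (SD, n = 2) on soft and 3.06 ± 0.245 (SD, n = 2) on stiff matrix at 2 days. At 4 days the IFIT1 level was 13.0 ± 0.267 FPKM (SD, n = 2) on soft and 5.55 ± 0.231 FPKM (SD, n = 2) on stiff matrix. IFIT1 on the stiff matrix at 4 days was still above its level on the soft matrix at 2 days, with no overlap between the libraries.

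IFIT2, a partner of IFIT1 and IFIT3 in RNA-binding complexes that also promotes cell death, showed the widest separation between the matrices. It had 487 and 547 counts on the soft and 193 and 235 counts on the stiff matrix at 2 days. At 4 days IFIT2 had 690 and 910 counts on the soft and 170 and 98 counts on the stiff matrix. Every stiff library was below every soft library. The IFIT2 level was 5.26 ± 0.526 FPKM (SD, n = 2) on the soft and 2.57 ± 0.356 FPKM (SD, n = 2) on the stiff matrix at 2 days. By 4 days IFIT2 stood at 10.3 ± 1.65 FPKM (SD, n = 2) on the soft and 1.98 ± 0.55 FPKM (SD, n = 2) on the stiff matrix. The IFIT2 libraries from the stiff matrix at 2 and at 4 days overlapped in CPM, whereas those from the soft matrix did not.

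IFIT3, which stabilizes IFIT1 in their complex, was the most abundant member per length on the soft matrix at both times and on the stiff matrix at 2 days. At 2 days it had 987 and 982 counts on the soft and 477 and 519 counts on the stiff matrix. At 4 days IFIT3 had 1387 and 1617 counts on the soft and 486 and 376 counts on the stiff matrix. The matrices did not overlap at either time. Per length, IFIT3 was at 12.3 ± 0.177 FPKM (SD, n = 2) on the soft and 7.35 ± 0.439 FPKM (SD, n = 2) on the stiff matrix at 2 days. The IFIT3 level at 4 days was 23.9 ± 1.76 FPKM (SD, n = 2) on the soft and 7.94 ± 0.58 FPKM (SD, n = 2) on the stiff matrix. On the stiff matrix the IFIT3 libraries of the 2 times overlapped in CPM.

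IFIT5, which binds 5′ triphosphate RNA as a monomer, rose with time on both matrices and was near the same level on both. It had 506 and 574 counts on the soft and 505 and 432 counts on the stiff matrix at 2 days. At 4 days IFIT5 had 838 and 915 counts on the soft and 763 and 610 counts on the stiff matrix. The level of IFIT5 was 4.76 ± 0.509 FPKM (SD, n = 2) on the soft and 4.87 ± 0.536 FPKM (SD, n = 2) on the stiff matrix at 2 days, where the libraries overlapped. At 4 days IFIT5 was at 9.82 ± 0.269 FPKM (SD, n = 2) on the soft and 8.91 ± 0.444 FPKM (SD, n = 2) on the stiff matrix, and here the stiff libraries lay just below the soft ones.

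**Figure D2:**
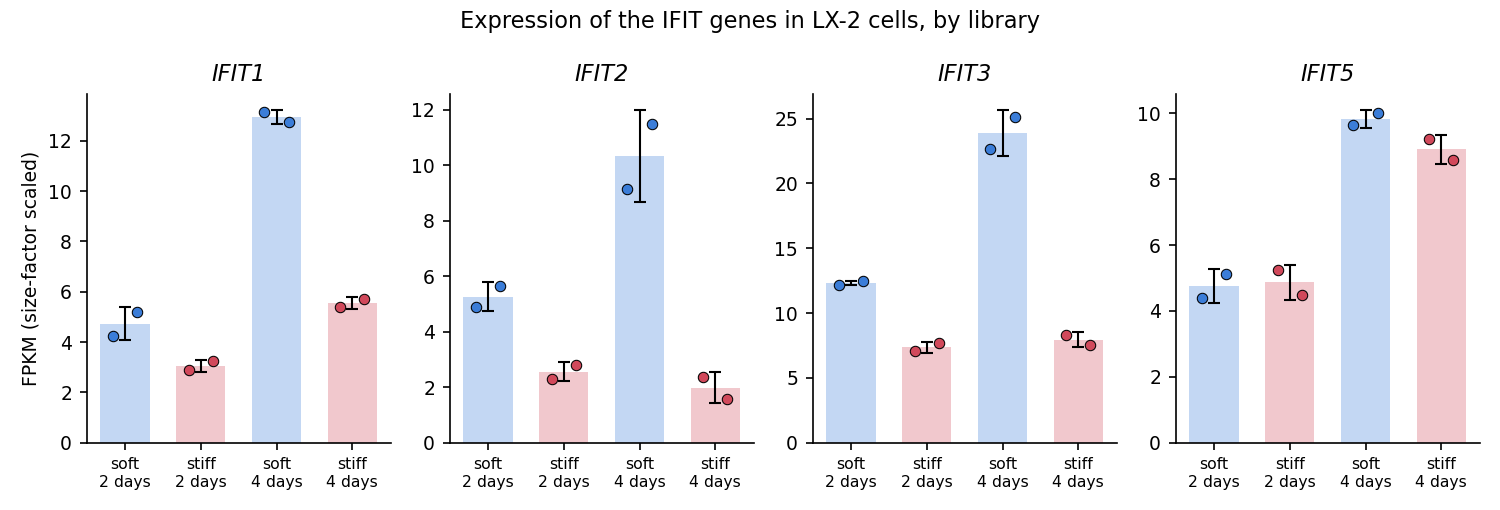
Expression of the 4 IFIT genes in FPKM on linear axes that start at 0, with bars for the mean, error bars for the SD (n = 2) and points for single libraries, blue for the soft and red for the stiff matrix. IFIT1, IFIT2 and IFIT3 are lower on the stiff matrix at both times, with IFIT2 at 1.98 against 10.3 FPKM at 4 days, while IFIT5 is at 8.91 against 9.82 FPKM.

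The order of the levels per length differed between the matrices. On the soft matrix at 2 days IFIT3 led at 12.3 FPKM, and IFIT2, IFIT5 and IFIT1 followed at 5.26, 4.76 and 4.73 FPKM, with libraries that overlapped between neighbours. On the soft matrix at 4 days IFIT3 was followed by IFIT1, IFIT2 and IFIT5, of which IFIT2 and IFIT5 overlapped. On the stiff matrix at 2 days the order in FPKM was IFIT3, IFIT5, IFIT1 and IFIT2. On the stiff matrix at 4 days IFIT5 led at 8.91 FPKM, before IFIT3 at 7.94, IFIT1 at 5.55 and IFIT2 at 1.98 FPKM, and in neither stiff condition did the 2 libraries of neighbours overlap.

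The effect of stiffness at 2 days asks whether the matrix had changed the family early. The log2 fold change, stiff against soft, was -0.63 for IFIT1 (standard error 0.15), -1.04 for IFIT2 (standard error 0.226) and -0.75 for IFIT3 (standard error 0.136). That of IFIT5 was 0.03, with a 95% interval from -0.31 to 0.38. In edgeR (quasi-likelihood test, p-values adjusted over all 14570 genes by Benjamini-Hochberg), none of the 4 passed 0.05, with adjusted p of 0.961 for IFIT1, 0.827 for IFIT2, 0.545 for IFIT3 and 1 for IFIT5. The same test called 0 genes of the whole table at this time, against 411 with an unadjusted p under 0.05, and DESeq2 called 28. IFIT1, IFIT2 and IFIT3 were 3 of the 259 genes that were lower at an unadjusted p under 0.05, which is 1.78% of the genes tested. IFIT3 ranked 15 of 14570 genes by p. DESeq2 called IFIT2 (adjusted p = 0.0379) and IFIT3 (adjusted p = 0.00641), and edgeR called IFIT1, IFIT2 and IFIT3 when either library from the stiff matrix at 4 days was left out, fits that called 0.546% and 0.573% of all genes lower. In bulk RNA, fewer cells that express a gene and less of its RNA per cell cannot be told apart, here and in each comparison that follows.

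At 4 days the fall on the stiff matrix passed the adjusted cutoff for 3 of the 4 members. IFIT2 fell the most, with a log2 fold change of -2.38 (standard error 0.236), 5.21-fold lower, and an adjusted p of 0.0151 from edgeR's quasi-likelihood test. IFIT3 was 3.02-fold lower, with a log2 fold change of -1.60 (standard error 0.138, edgeR adjusted p = 0.0106), and ranked 4 of all 14570 genes by p. IFIT1 was 2.34-fold lower, with a log2 fold change of -1.23 (standard error 0.149, edgeR adjusted p = 0.0295). IFIT5 had a log2 fold change of -0.15, a 95% interval from -0.49 to 0.19 and an edgeR adjusted p of 0.877, so that the log2 fold changes of the other 3 members lay outside its interval. Genes lower on the stiff matrix made up 0.213% of those tested (31 genes), and 5 genes were higher.

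The sizes of these falls depended little on single libraries, but the calls did. Without the one or the other library from the stiff matrix at 4 days, the log2 fold change of IFIT1 was -1.17 or -1.27. It was -2.69 or -2.12 for IFIT2 and -1.66 or -1.52 for IFIT3. Such a fit has 1 library in that condition and assumes its spread from the other conditions, so its calls cannot test the 3 falls. These fits called far more genes, with 14.6% of the genes tested lower on the stiff matrix without the first library and 1.81% without the second. Without any 1 of the 4 libraries from the soft matrix the 3 calls were lost, as was every other call in the table. The adjusted p of IFIT3 in edgeR was then 0.0899 or 0.0914 without a soft library of 2 days and 0.0818 or 0.126 without one of 4 days. IFIT1 alone also lost the call without either library from the stiff matrix at 2 days (edgeR adjusted p = 0.107 each). A fit of the 4-day libraries alone called 0 of all genes tested, and so none of the 4, with an edgeR adjusted p of 0.285 for IFIT2 and for IFIT3.

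Over the mean of both days, the log2 fold change was -0.93 for IFIT1 (standard error 0.105, edgeR adjusted p = 0.0163), -1.71 for IFIT2 (standard error 0.163, adjusted p = 0.00899) and -1.17 for IFIT3 (standard error 0.097, adjusted p = 0.00634). For IFIT5 it was -0.06, with a 95% interval from -0.30 to 0.18. Genes called lower in this comparison were 0.35% of those tested. IFIT1, IFIT2 and IFIT3 were each lower in every stiff library than in every soft library of the same day. None of them was called when a soft library of 2 days, the first stiff library of 2 days or the second soft library of 4 days was left out. IFIT1 lost the call without any 1 of the soft libraries or of the stiff libraries of 2 days. Most calls of the whole table were lost in these fits as well.

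Culture time was compared on each matrix. From 2 to 4 days on the soft matrix all 4 members rose, with log2 fold changes of 1.47 for IFIT1 (standard error 0.149, edgeR adjusted p = 0.00157), 0.99 for IFIT2 (standard error 0.22, adjusted p = 0.0155), 0.97 for IFIT3 (standard error 0.135, adjusted p = 0.00345) and 1.06 for IFIT5 (standard error 0.149, adjusted p = 0.00352). This comparison moved many genes, and 14.1% of those tested were called higher. IFIT2 lost the call without any 1 of the 4 soft libraries (edgeR adjusted p = 0.0502 to 0.145), and IFIT1 alone stayed called without the first soft library of 2 days. On the stiff matrix IFIT1 rose by 0.87 (standard error 0.151, edgeR adjusted p = 0.00686) and IFIT5 by 0.89 (standard error 0.149, adjusted p = 0.00628) on the log2 scale. IFIT2 had a log2 fold change of -0.35 (95% interval -0.90 to 0.19, adjusted p = 0.29) and IFIT3 one of 0.12 (95% interval -0.19 to 0.44, adjusted p = 0.527). Here 14% of the genes tested were called higher. Without the first stiff library of 4 days IFIT2 was called lower on the stiff matrix at 4 than at 2 days, with a log2 fold change of -0.67 (edgeR adjusted p = 0.0155), in a fit that called 25.7% of all genes lower. Without the first stiff library of 2 days only IFIT5 was called, and without the second none was. The comparisons over time share libraries with the comparisons between the matrices and are not independent of them.

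The difference between the stiffness effects at 4 and at 2 days was tested directly. It was -0.60 for IFIT1 (95% interval -1.09 to -0.12), -1.35 for IFIT2 (95% interval -2.09 to -0.60), -0.85 for IFIT3 (95% interval -1.29 to -0.40) and -0.18 for IFIT5 (95% interval -0.66 to 0.31) on the log2 scale. The unadjusted p in edgeR was 0.0212 for IFIT1, 0.00316 for IFIT2, 0.00233 for IFIT3 and 0.422 for IFIT5. The first 3 were under 0.05, as did 1.17% of all genes with a more negative effect at 4 days, but all 4 had an adjusted p of 1. edgeR called 0 genes of the table in this contrast, with 284 at an unadjusted p under 0.05, and DESeq2 called 3. IFIT2 and IFIT3 were called without the first stiff library of 4 days (edgeR adjusted p = 0.00146 and 0.00391), in a fit that called 9.85% of all genes more negative at 4 days.

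**Figure D3:**
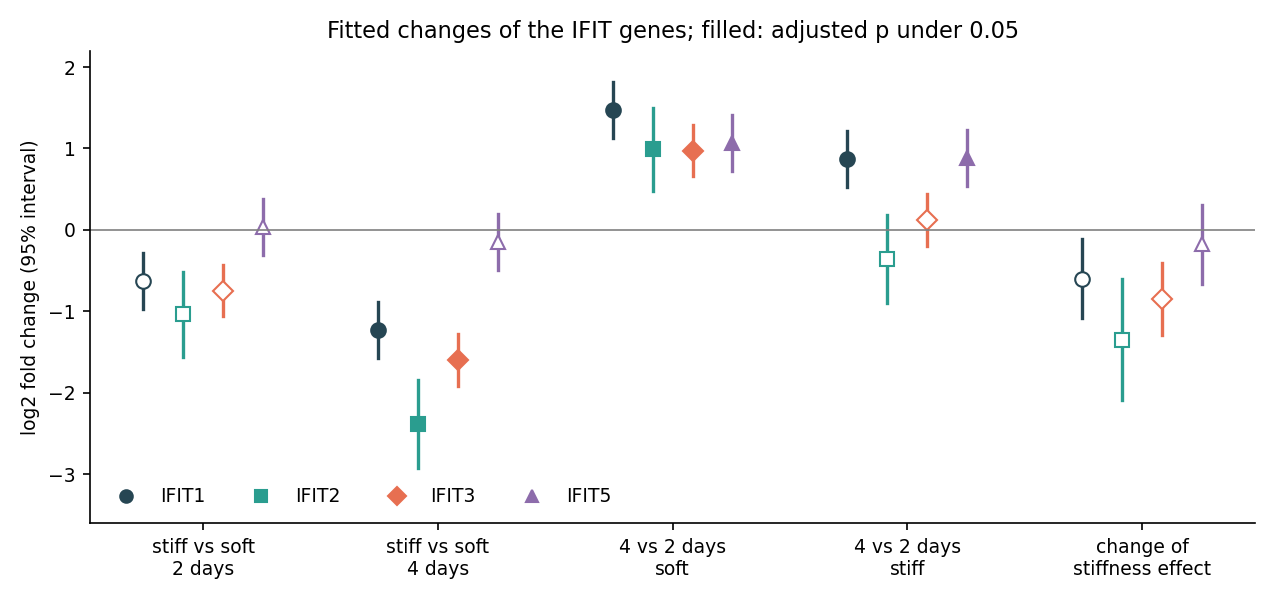
Fitted log2 fold changes of the IFIT genes with 95% intervals (lines) in 5 comparisons, with filled symbols for an adjusted p under 0.05 in edgeR's quasi-likelihood test. Stiff against soft at 4 days, IFIT1, IFIT2 and IFIT3 lie at -1.23, -2.38 and -1.60, and the interval of IFIT5 spans 0; the change of the stiffness effect passes the cutoff for none.

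The ratio of each member to IFIT5 within a library needs no scaling between libraries. It was computed after the values were seen. The log2 FPKM ratio of IFIT2 to IFIT5 was 0.15 and 0.14 in the soft libraries of 2 days and -0.07 and 0.20 in those of 4 days. In the stiff libraries of 2 days it was -1.18 and -0.67, and in those of 4 days it was -1.96 and -2.43, below every soft library. The mean difference, stiff against soft, was -1.66 for the ratio of IFIT2 to IFIT5, -1.11 for IFIT3 to IFIT5 and -0.87 for IFIT1 to IFIT5. An exact two-sided permutation of the matrix labels within each day, over 36 assignments, gave p = 0.0556 for each of the 3 ratios, the smallest value this design allows, and 0.0556 after Benjamini-Hochberg adjustment over the 3. The separation of the libraries was known when IFIT5 was taken as the denominator, so this outcome was set beforehand and no conclusion is drawn from it.

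**Figure D4:**
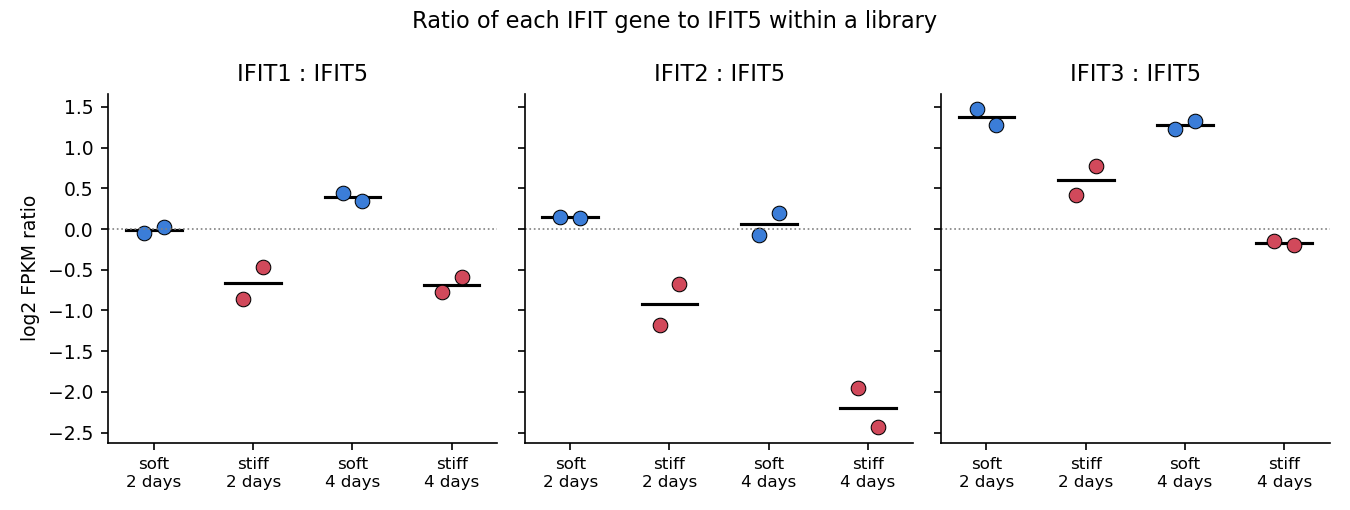
Log2 FPKM ratio of IFIT1, IFIT2 and IFIT3 to IFIT5 within each library (points, blue for the soft and red for the stiff matrix), with lines for the mean of 2 libraries. Each stiff library lies below each soft library in all 3 ratios, and the ratio of IFIT2 reaches -1.96 and -2.43 on the stiff matrix at 4 days.

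Across the 8 libraries, log2 CPM of IFIT2 and IFIT3 had a Pearson r of 0.963, IFIT1 and IFIT3 one of 0.886, and IFIT1 and IFIT2 one of 0.738. IFIT5 followed IFIT1 (r = 0.805) more closely than IFIT3 (r = 0.471) or IFIT2 (r = 0.248). These are descriptions over 8 libraries that share 4 conditions. The genes most like the mean of the 4 standardized members were EPSTI1 (r = 0.987), PLSCR1 (r = 0.985), P4HA1 (r = 0.984), DDX58 (r = 0.983) and APOL6 (r = 0.982), followed by TGIF1, BACE2, PLXND1, MAMDC2 and SLC44A1. EPSTI1, PLSCR1 and APOL6 are interferon-stimulated genes, DDX58 encodes the RNA sensor RIG-I, and P4HA1 encodes a collagen prolyl hydroxylase subunit. OAS2 (r = 0.997), CXCL5, OAS1, ICOSLG and CCL5 were nearest to IFIT3. C1orf106 (r = 0.992), APOL3, DDX60, OAS2 and CTSS were nearest to IFIT2. LDHA (r = 0.99), EPSTI1, LAMA4, MAMDC2 and JAM2 were nearest to IFIT1, a set in which 1 gene, EPSTI1, was on the list of interferon-stimulated genes. DCP2 (r = 0.998), PLRG1, DYNLT3, DCUN1D1 and HSF2 were nearest to IFIT5, and none of these was on a list of the interferon pathway. DCP2, the mRNA decapping enzyme, had log2 fold changes of 1.37 and 1.16 over time on the soft and the stiff matrix and of -0.01 and -0.22 for stiff against soft at 2 and 4 days.

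Other interferon-stimulated genes were counted from a fixed list of 59, of which 57 were tested. At 4 days 8 were called lower and 0 higher on the stiff matrix, against the 0.213% of all genes called lower, and 54 of 57 had a negative log2 fold change. Without any 1 of the 4 soft libraries the calls of the list were lost, as was every other call in the table, and the list median was -0.79 to -0.84. A fit of the libraries of 4 days alone called 0 of the list and 0 of all genes. Without the first or the second stiff library of 4 days more of the list and of the whole table was called, with a list median of -0.87 or -0.88. With all 8 libraries the median of the list was -0.77, beside 0.02 over all genes tested and -1.41 over the 4 IFIT genes. At 2 days 0 were called in edgeR, 18 were lower at an unadjusted p under 0.05 (1.78% of all genes) and the median was -0.45. From 2 to 4 days 21 rose and 3 fell on the soft matrix, and 4 rose and 5 fell on the stiff matrix. Over all genes 14.1% rose and 13.3% fell on the soft matrix, and 14% rose and 13.7% fell on the stiff matrix, so that the counts on the stiff matrix lay below these shares.

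The 5 list genes with the largest differences at 4 days were CXCL10, IFI44L, CXCL11, TNFSF10 and OAS1. CXCL10, a chemokine for T cells, had 55 and 44 counts on the soft and 1 and 1 on the stiff matrix, a ratio of 42.8 (95% counting interval 11.5 to 359). IFI44L had 43 and 52 counts against 0 and 2, a ratio of 41.1 (95% counting interval 11.1 to 344). CXCL10 and IFI44L were both called lower by edgeR (adjusted p = 0.0331 and 0.0362). Their counting intervals cover counting error in the summed counts of 2 libraries and leave out the spread between libraries. CXCL11 with 21 and 41 counts against 2 and 0 (edgeR adjusted p = 0.195) and TNFSF10 with 20 and 25 against 2 and 0 (adjusted p = 0.277) were not called. OAS1, which makes the 2′-5′ oligoadenylate that activates RNase L, had a log2 fold change of -3.35 (edgeR adjusted p = 0.0151). OASL, which enhances RIG-I signalling, was at -3.34 (adjusted p = 0.00882), IFI44 at -2.49 (adjusted p = 0.0106), OAS2 at -2.40 (adjusted p = 0.015), DDX60 at -2.16 (adjusted p = 0.0199) and EPSTI1 at -1.82 (adjusted p = 0.0362) on the log2 scale in the same edgeR test. IFIT2 thus stood among OAS2, IFI44 and DDX60, IFIT3 near EPSTI1, IFIT1 between EPSTI1 and the median of the list, and IFIT5 close to 0. The call of CXCL10 was lost in 11 of 19 alternatives, that of IFI44L in 9 of 17 and that of EPSTI1 in 11 of 20. OAS1 lost it in 7 of 19, OAS2 in 7 of 20, DDX60 in 9 of 20, and OASL and IFI44 in 6 of 20 each. XAF1 was called lower over the mean of both days (log2 fold change -1.20, edgeR adjusted p = 0.0444) and not at 4 days alone, and lost this call in 11 of 19 alternatives (adjusted p up to 0.307).

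**Figure D5:**
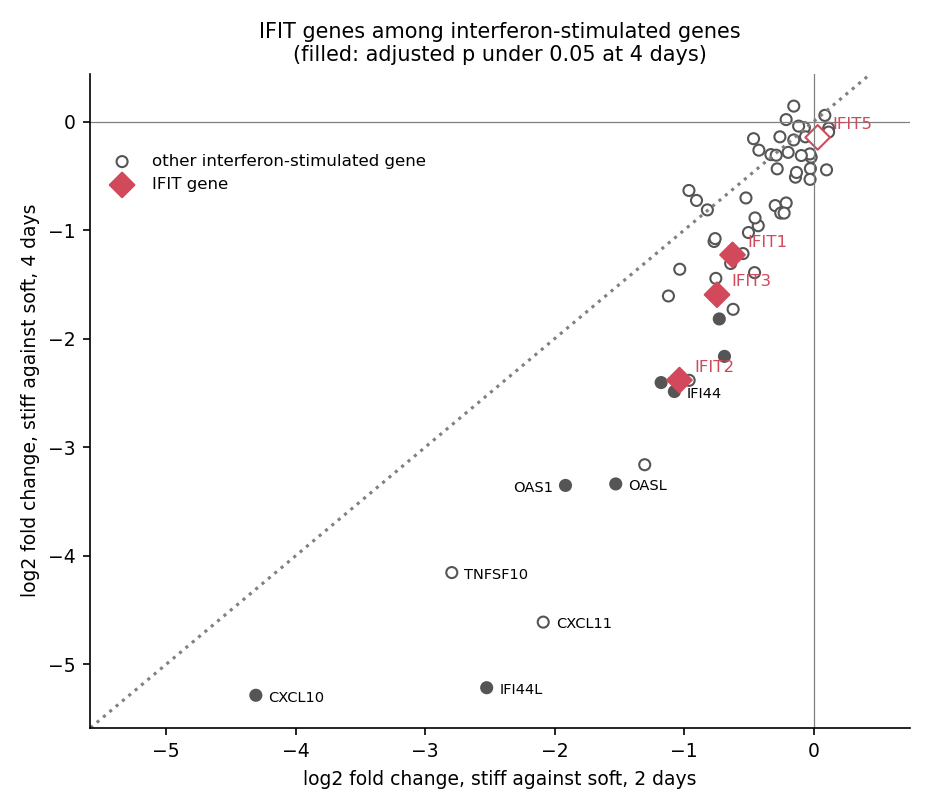
Log2 fold changes, stiff against soft, at 2 days (x axis) and 4 days (y axis) for the IFIT genes (red diamonds) and 57 other interferon-stimulated genes (circles), filled where the edgeR adjusted p at 4 days was under 0.05; the dotted line marks equal change. IFIT2, IFIT3 and IFIT1 lie among the genes below the dotted line and IFIT5 lies near 0 on both axes.

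The ligands upstream of the family were at or near 0. Of 21 interferon genes in the table, 15 were at 0 in all 8 libraries, among them IFNB1, IFNG, IFNL1, IFNL2 and IFNL3. A count of 0 allows up to 3 counts, which is 0.11 to 0.15 CPM of the library total, for counting error only. IFNA1, IFNA8, IFNA13, IFNK and IFNW1 had at most 3 counts in any library, and reads of the near-identical IFNA copies may have been discarded as multiply mapped. IFNE alone was tested, with 21 to 41 counts per library. Its log2 fold change was 0.39 at 2 days and 0.20 at 4 days, stiff against soft, with adjusted p of 1 and 0.945 in edgeR.

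At the median, receptors, kinases and STAT factors moved less than IFIT1, IFIT2 and IFIT3, but not less than IFIT5 at 4 days (-0.15). Of 16 tested genes of the receptor and JAK-STAT list, 0 were called between the matrices at either time in edgeR, 2 were lower at an unadjusted p under 0.05 at each time (1.78% of all genes at 2 days and 4.32% at 4 days), and all 16 had a negative log2 fold change at 4 days, with a median of -0.24. STAT2 had a log2 fold change of -0.30 at 4 days (edgeR adjusted p = 0.813). IRF9, the DNA-binding partner of STAT2, had 757 and 759 counts on the soft and 353 and 459 on the stiff matrix at 2 days, and 663 and 631 against 310 and 242 at 4 days. The stiff libraries were below the soft ones at both times, with a log2 fold change of -0.66 at 2 days (edgeR adjusted p = 0.976), -1.03 at 4 days (adjusted p = 0.0775) and -0.84 over the mean of both days (adjusted p = 0.0319). The last call was lost in 10 of 19 alternatives, with an adjusted p of up to 0.253.

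Of 9 interferon regulatory factors tested, IRF1 alone was called at 4 days, against the 0.213% of all genes called lower. IRF1, which can bind ISREs without STATs, had 1093 and 1040 counts on the soft and 510 and 630 on the stiff matrix at 2 days. At 4 days IRF1 had 846 and 831 counts on the soft and 351 and 319 on the stiff matrix, a log2 fold change of -1.11 (standard error 0.149, edgeR adjusted p = 0.0362). The call of IRF1 was lost without any 1 of the soft libraries, where every other call in the table was lost too, and without either stiff library of 2 days. None of the 9 was called between 2 and 4 days on either matrix in edgeR. Of all genes, 14.1% rose and 13.3% fell on the soft matrix, and 14% rose and 13.7% fell on the stiff matrix. On each matrix 1 of the 9 was lower at an unadjusted p under 0.05, as were 2878 (soft) and 2880 (stiff) of the 14570 genes tested. IRF7 had a log2 fold change of -0.34 at 4 days (edgeR adjusted p = 0.862), and its 2 stiff libraries, with 108 and 192 counts, lay far apart. Without the second of them IRF7 was called lower, at -0.95 (adjusted p = 0.00917).

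Among nucleic acid sensing genes, 12 were tested and 0 were called at 4 days in edgeR, while 7 were lower at an unadjusted p under 0.05, against 4.32% of all genes, and 11 had a negative log2 fold change. DDX58 (RIG-I), which like IFIT5 recognizes 5′ triphosphate RNA, had a log2 fold change of -1.45 at 4 days (edgeR adjusted p = 0.0529) and -1.13 over the mean of both days (adjusted p = 0.0293). DHX58, a regulator of RIG-I signalling, was at -0.88 over the mean of both days (edgeR adjusted p = 0.0415). The call over both days was lost in 9 of 19 alternatives for DDX58 (adjusted p up to 0.234) and in 11 of 19 for DHX58 (adjusted p up to 0.322). Of 8 tested genes whose proteins bind IFIT proteins or act with them, subunits of the initiation factor eIF3 and the adaptors MAVS, TBK1 and TMEM173 (STING), 0 were called between the matrices at either time, with a median log2 fold change of 0.11 at 4 days and 1 gene, TMEM173 (-0.60, edgeR adjusted p = 0.427), lower at an unadjusted p under 0.05. TMEM173 was called without the second stiff library of 4 days, at -0.85 (edgeR adjusted p = 0.00231).

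The neighbours of the cluster on chromosome 10 were not called between the matrices at either time with all 8 libraries. LIPA, whose gene spans IFIT2, IFIT3 and IFIT1 on the other strand, had 2298 and 2587 counts on the soft and 2329 and 1394 on the stiff matrix at 4 days, a log2 fold change of -0.20 (edgeR adjusted p = 0.861). PANK1 was at -0.32 (adjusted p = 0.819), KIF20B at -0.09 (adjusted p = 0.963) and SLC16A12, with 10 to 20 counts per library at 4 days, at 0.89 (adjusted p = 0.736) on the log2 scale in the same edgeR test. Without the first stiff library of 4 days, in the fit that called 14.6% of all genes lower, LIPA was called at -0.47 (adjusted p = 0.011) and KIF20B at -0.64 (adjusted p = 0.00438) in edgeR. Without the second, LIPA was at 0.040 and KIF20B at 0.32. CH25H, an interferon-stimulated gene next to LIPA, had at most 4 counts and was not tested.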

How the data were processed

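Total RNA of LX-2 cells was sequenced in 8 libraries, 2 for each combination of matrix and time, grouped by the sample labels. Per the labels and the study's methods, the authors trimmed reads with Trim Galore, mapped them to hg19 with STAR 2.7.1a and deposited counts per gene from HTSeq, which were not normalized. A table of FPKM was deposited by the authors as well, and its values proved to be scaled by size factors. The gene annotation and strand setting are not given in the sources used here.

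Counts were tested in R 4.3.3 with edgeR 4.0.16: filterByExpr by condition left 14570 genes, TMM factors were 0.8704 to 1.08, and a quasi-likelihood model of the 4 conditions was fitted to all 8 libraries. A gene was called when its p-value, adjusted by Benjamini-Hochberg over all genes tested, was under 0.05. Log2 CPM used a prior count of 2. FPKM served for levels between genes, and in alternatives with limma 3.58.1 on log2(FPKM + 1) and log2(FPKM + 0.1). The tests were first run on simulated counts in which each gene had the same spread in every condition. The unequal spread between conditions seen here was not simulated. Totals of 19955975 to 27263935 counts make counting error small for the 4 members, and 2 libraries per condition limit the precision.

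The family members and gene lists were chosen with earlier results of these data known. Named were the 4 members, list genes past the adjusted cutoff between the matrices, the 5 list genes with the largest differences at 4 days, interferon ligands with counts, STAT2, IRF1, IRF7, IRF9, locus neighbours and the genes with the highest Pearson r, and 1 gene of the rule is not reported here. Markers, APOL3 and other nearest genes follow the same rule, and TMEM173, ENSG00000232110 and IFIT1B were named after their values were seen. Alternatives were DESeq2 1.42.0, RLE and no scaling factors, other filters, separate fits, a replicate block, voom with quality weights, a 2-fold cutoff and the omission of each library. A crossed pairing at 4 days, the ratios to IFIT5 and the alternatives for genes outside the family were chosen after seeing the data. Sequences were taken from RefSeq start windows (GRCh38.p14) and positions from GENCODE v44lift37 on GRCh37.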

Additional observations from a re-analysis of the deposited data

How the results depend on the processing

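Every alternative kept the negative sign of the stiffness effect on IFIT1, IFIT2 and IFIT3 at 2 and 4 days, and the calls moved more than the sizes did. Of the 4 IFIT genes, 0 were called at 2 days, as were 0 of all genes. DESeq2 called 2, a separate fit of that day 3, and voom with sample quality weights 3. These settings called 0.0867%, 2.47% and 0.851% of all genes lower. At 4 days 3 were called, beside 0.213% of all genes called lower. A separate fit called 0, limma on log2(FPKM + 1) without a filter 1, and voom 1, with 0, 0.0907% and 0.00686% of all genes lower. Over time on the soft matrix 4 were called, and 2 with at least a 2-fold change, where 14.1% and 4.23% of all genes were called higher. Over time on the stiff matrix 2 were called, where 14% of all genes were called higher. There a separate fit called 0 and at least a 2-fold change 0, with 0 and 4.52% of all genes higher. The change of the stiffness effect gave 0 of the 4 and 0 of all genes. Over the mean of both days 3 were called, beside 0.35% of all genes called lower. Leaving out 1 library changed the calls in each comparison. IFIT5 at 2 days was reversed to -0.039 without scaling factors and lay between -0.089 and 0.144 without 1 library (-0.071 without the first soft library and -0.089 without the first stiff library of that day). IFIT3 over time on the stiff matrix was reversed to -0.0017 without scaling factors, which moved the median of all genes in that comparison from 0.03 to -0.10. Among other named genes, none of which was called at 4 days with all libraries, IRF7 was reversed to 0.11 without the first stiff library of 4 days, LIPA to 0.040 without the second, KIF20B to 0.32 without that library and 0.12 without the second soft library, and IFNE to -0.16 and -0.20 without these same libraries. Omitting 1 stiff library of 4 days also led to calls for IRF7 (-0.95), TMEM173 (-0.85), LIPA (-0.47) and KIF20B (-0.64). The cause of the other moves was not tested.

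Soft and stiff libraries of the same replicate number did not deviate alike, with correlations of deviations of -0.04 at 2 days and -0.49 at 4 days. The negative value at 4 days means that libraries of unlike number tended to deviate alike, so a shared batch under other numbers was not excluded. With a replicate block, IFIT1 at 4 days (log2 fold change -1.23) was no longer called (adjusted p = 0.0766 in edgeR), which left 2 genes, and no other call of an IFIT gene changed. Numbers crossed on the stiff matrix at 4 days, tried after the data were seen, gave 0 IFIT genes at 2 days and 3 at 4 days. Of the whole table, that fit called 47 genes lower and 15 higher at 4 days, against 31 and 5 without a block. Over all genes, the number called ranged over the alternatives from 0 to 667 at 2 days and from 0 to 4676 at 4 days, from 347 to 7941 over time on the soft and 0 to 7826 on the stiff matrix, from 0 to 3139 for the change of the effect and from 0 to 2968 over the mean of both days. Removing a library leaves 1 in its condition, which is then assumed to vary like the others.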
